A study of Mus musculus with 12 samples.

Results

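Introns are removed from primary transcripts soon after they are made, so the RNA they yield is short-lived and lies mainly in unspliced precursors. Metabolic labeling with 4-thiouridine (4sU), a uridine analog that cells build into RNA while they transcribe, allows newly made RNA to be separated from RNA that was already present. The introns described here are the intronic entries of the deposited expression table, for annotated transcripts and for assembled lincRNAs (long intergenic noncoding RNAs), that had a value in all 12 libraries. They comprised 59286 of 91702 intronic entries, and they were compared between 6 labeled and 6 total RNA libraries with labeling time as a covariate.

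Mouse embryonic stem cells (mESCs, line DTCM23/49, XY) were grown with 200 µM 4sU for 15, 30 or 60 min. At each labeling time 1 total and 1 labeled library came from each of 2 biological replicates, which were passaged separately after 1 culture had been split. Labeled RNA was biotinylated and pulled down, and both kinds of RNA were sequenced as single-end reads of 100 nucleotides. All libraries thus come from cells exposed to 4sU, and no library without 4sU was analysed here. In bulk RNA, fewer cells of a type and less RNA per cell cannot be told apart. Exonic levels of 9 markers of embryonic stem cells, among them Pou5f1, Nanog and Esrrb, summed to between 991.6 and 1624 TPM (taken as deposited units divided by 20). Those of 7 endoderm markers summed to at most 1.155, those of 4 mesoderm markers to at most 1.109, those of 3 trophectoderm markers to at most 0.413 and those of 4 fibroblast markers to at most 2.84. The neural markers Pax6 and Neurod1 together reached 10.6, and Sox1 was not measured. Dab2, Mesp1 and Cdx2, defining markers of endoderm, mesoderm and trophectoderm, had no value in any library, where the table holds no value of 1 unit or less.

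Of the 59286 introns, 58840 belonged to Ensembl transcripts, 374 to assembled TCONS transcripts and 72 to transcripts named linc. A further 10499 intronic entries had no value in any library. Transcripts of a gene share introns, so the values of member transcripts were summed per gene, which gave 15420 genes, of which 6548 had 1 member transcript. The remaining 10557 transcripts were not matched to a gene. Values are length-normalized abundances in deposited units, of which 20 correspond to about 1 TPM, a transcript's share scaled for its length. Differences are given as log2(labeled + 1) minus log2(total + 1), which understates the change of genes with low values. Adjusted p-values are from limma with Benjamini-Hochberg adjustment over all genes tested, and a gene was called at an adjusted p under 0.05.

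The labeled libraries differed in their intronic level. Introns made up between 6.531% and 7.405% of the summed value in the 6 total libraries. In labeled RNA of replicate 1 this share was 14.81% at 15 min, 9.346% at 30 min and 13.92% at 60 min. In labeled RNA of replicate 2 it was 7.244%, 10.76% and 6.986%. The median intron followed nearly the same order, with 24.66, 12.13 and 23.31 units in labeled RNA of replicate 1, 8.18, 15.64 and 8.44 units in that of replicate 2, and 7.89 to 9.74 units in total RNA. The labeled libraries of replicate 1 at 15 and 60 min therefore stood above all others, and those of replicate 2 at the same times lay within the range of total RNA in both measures. Introns of 3460 transcripts without an exonic value in any library moved in the same way, with medians of 3.41 to 4.45 units in total RNA and between 4.4 and 11.23 units in labeled RNA. The part of this low-level intronic signal in the differences below was not tested.

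**Figure D1:**
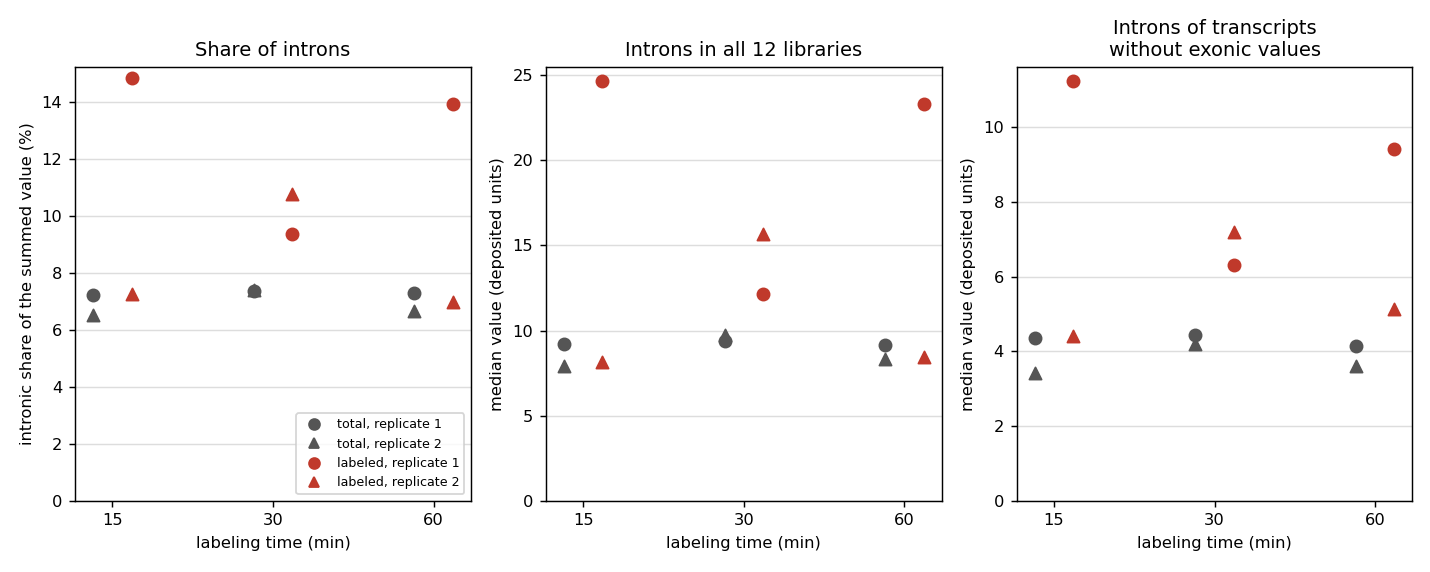
Intronic level of each library by labeling time in min: the intronic share of the summed value in percent, the median value of the introns present in all 12 libraries, and the median value of introns of transcripts without exonic values, both in deposited units. Circles are replicate 1, triangles replicate 2, grey total RNA and red labeled RNA; the labeled libraries of replicate 1 at 15 and 60 min have shares of 14.81% and 13.92%, whereas the total libraries lie between 6.531% and 7.405%.

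Introns of most genes had higher values in labeled RNA. The median difference over the 15420 genes was 0.61, and 4558 genes (29.6%) were called, of which 4529 (29.4% of all genes) were higher and 29 (0.188%) lower in labeled RNA. At the level of transcripts, 14039 of 59286 introns (23.7%) were called, 13931 (23.5%) higher and 108 (0.182%) lower, with a median difference of 0.57. Within the pairs of equal labeling time and replicate, the median gene was 1.34, 0.35 and 1.25 higher in replicate 1 at 15, 30 and 60 min, and 0.07, 0.63 and 0.06 higher in replicate 2. In 2449 genes (15.9%) all 6 labeled libraries lay above all 6 total libraries, and in 25 genes (0.162%) all lay below them.

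Because the difference of the median gene varied this much between pairs, each count is also given after each library was centred on its median gene, which lowered every gene's difference by 0.68. On this scale 1044 genes (6.77%) were higher and 1405 (9.11%) lower in labeled RNA, and of the transcripts 3449 (5.82%) were higher and 4153 (7.01%) lower, so the split between the directions depends on the scaling. All 1044 genes were also higher on the deposited scale. Of the 1405 genes, 894 had a difference above 0 on the deposited scale, so the sign of their difference depended on the scale. Both scales are relative within a library, so neither shows enrichment or depletion in absolute amount. The counts rested on the 30 min libraries as well. Without these only 2 genes were called, whereas 2899 were called without 15 min and 2631 without 60 min. With the median level of introns of transcripts without exonic values subtracted from each library, a choice made after the data were seen, the median difference was 0.33, and 2375 genes were higher and 114 lower. Values below that level were set to 0 in this fit. Without both high labeled libraries of replicate 1, 3942 genes were higher and 686 lower, and without both low labeled libraries of replicate 2, 14094 were higher and 62 lower.

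**Figure D2:**
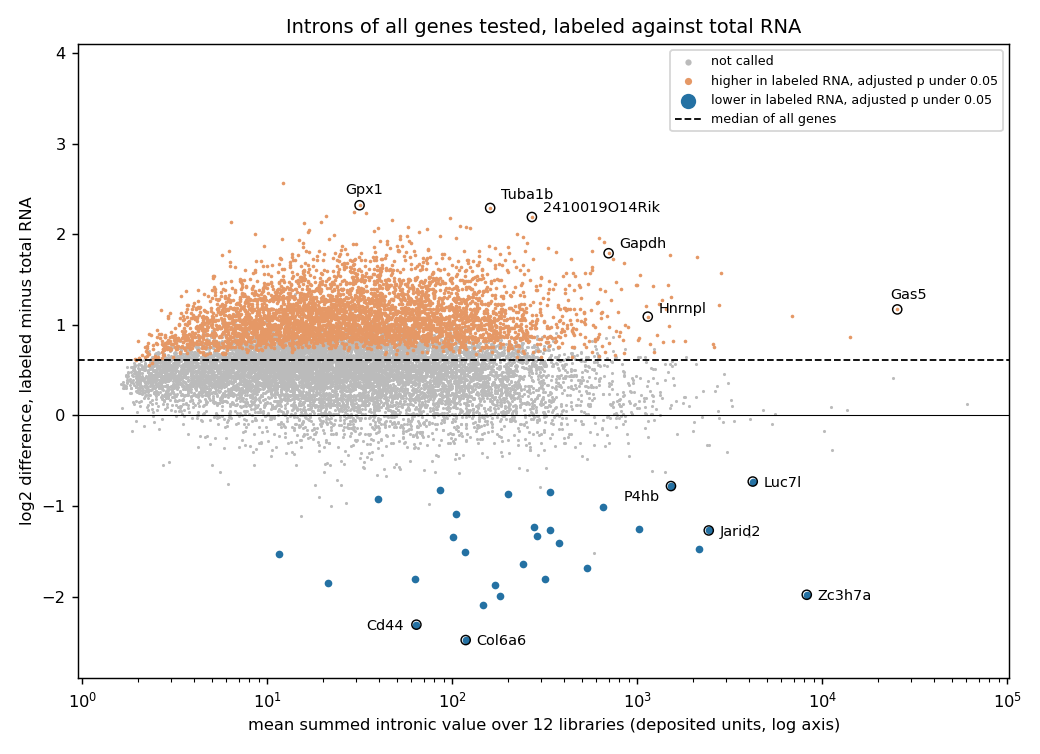
Difference between labeled and total RNA (log2, vertical axis) against the mean summed intronic value over 12 libraries (deposited units, log axis) for 15420 genes, 1 point a gene. Orange genes were higher and blue genes lower in labeled RNA, and the dashed line marks the median of 0.61; the 29 lower genes have differences of -0.73 to -2.48.

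The most enriched introns belonged to genes with little annotated intron. The 12 genes named for the highest differences, at a mean of at least 20 units and with the same direction in all 6 pairs, had between 218 and 3554 bases of annotated intron, against a median of 21518 over all genes. They were Gpx1, Tuba1b, Pole3, Mt1, Fth1, 2410019O14Rik, Romo1, Ly6g6e, Tlcd1, Gadd45a, Surf1 and Lrrc14, with differences of 2.32 to 2.07. In 10 of the 12 the groups did not overlap, the exceptions being Romo1 and Gadd45a. They were chosen for the size of this difference, so their rank is a description.

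Gpx1, which encodes a glutathione peroxidase, has 1 intron of 218 bases and lies on chromosome 9 from 108339080 to 108340342 (GRCm38, plus strand). Its summed intronic value had a lowest, median and highest library of 3.4, 7.61 and 25.6 units in total RNA and of 27.6, 49.6 and 85.2 units in labeled RNA. The difference was 2.32 ± 0.43 (SE, adjusted p = 0.00197), while its exons did not pass the test (-0.07 ± 0.19, adjusted p = 0.834). All labeled libraries lay above all total libraries, although the lowest labeled and the highest total library were close.

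Tuba1b, an alpha-tubulin gene on chromosome 15 from 98931429 to 98934390 (minus strand), had a tighter separation. Its introns reached 35.8, 53.9 and 70.1 units (lowest, median and highest) in total RNA and 164, 241 and 450 units in labeled RNA, a difference of 2.29 ± 0.29 (adjusted p = 0.000814). Its exons went the other way and fell by 0.41 ± 0.11 (SE, adjusted p = 0.0282), from a mean of 7047 to 5328 units. Fth1, the heavy chain of the iron store ferritin, on chromosome 19 from 9980600 to 9985111 (plus strand), showed the same opposition. Its introns ranged from 3.31 to 9.9 units in total RNA and from 21.1 to 45.8 units in labeled RNA (2.20 ± 0.29, adjusted p = 0.000814), and its exons fell by 0.63 ± 0.13 (adjusted p = 0.00769).

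Mt1, a metallothionein that binds zinc and copper, had introns between 8.58 and 13.2 units in total RNA and between 26.3 and 84.1 units in labeled RNA (2.23 ± 0.29, adjusted p = 0.000814). Pole3, an accessory subunit of DNA polymerase epsilon, had introns between 5.37 and 12.7 units in total RNA and between 19.8 and 101 units in labeled RNA (2.25 ± 0.35, adjusted p = 0.00109). Both genes were separated in all libraries, but only for Pole3 were the exons also higher (0.49 ± 0.13, adjusted p = 0.0208), since those of Mt1 did not pass the test (-0.02 ± 0.19, adjusted p = 0.961). The noncoding gene 2410019O14Rik had the most abundant introns of the 12, with 71.7 to 106 units in total RNA and 265 to 555 units in labeled RNA (2.19 ± 0.24, adjusted p = 0.000446).

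Gadd45a, a p53 target induced by DNA damage, and Romo1, a mitochondrial membrane protein, were the genes with overlap. Introns of Gadd45a ranged from 19.5 to 69 units in total RNA and from 57.9 to 280 units in labeled RNA (2.08 ± 0.35, adjusted p = 0.00126). Those of Romo1 ranged from 9.56 to 88.8 units in total RNA and from 71.6 to 196 units in labeled RNA (2.18 ± 0.38, adjusted p = 0.00142). In both, the labeled library of replicate 2 at 60 min was the lowest labeled one and the only one to reach into the range of total RNA. Surf1, an assembly factor of cytochrome c oxidase, Tlcd1, a membrane lipid regulator, and Lrrc14 separated in all libraries, with differences of 2.08, 2.09 and 2.07. After centring, 11 of the 12 genes passed the test, and Ly6g6e had an adjusted p of 0.0526.

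**Figure D3:**
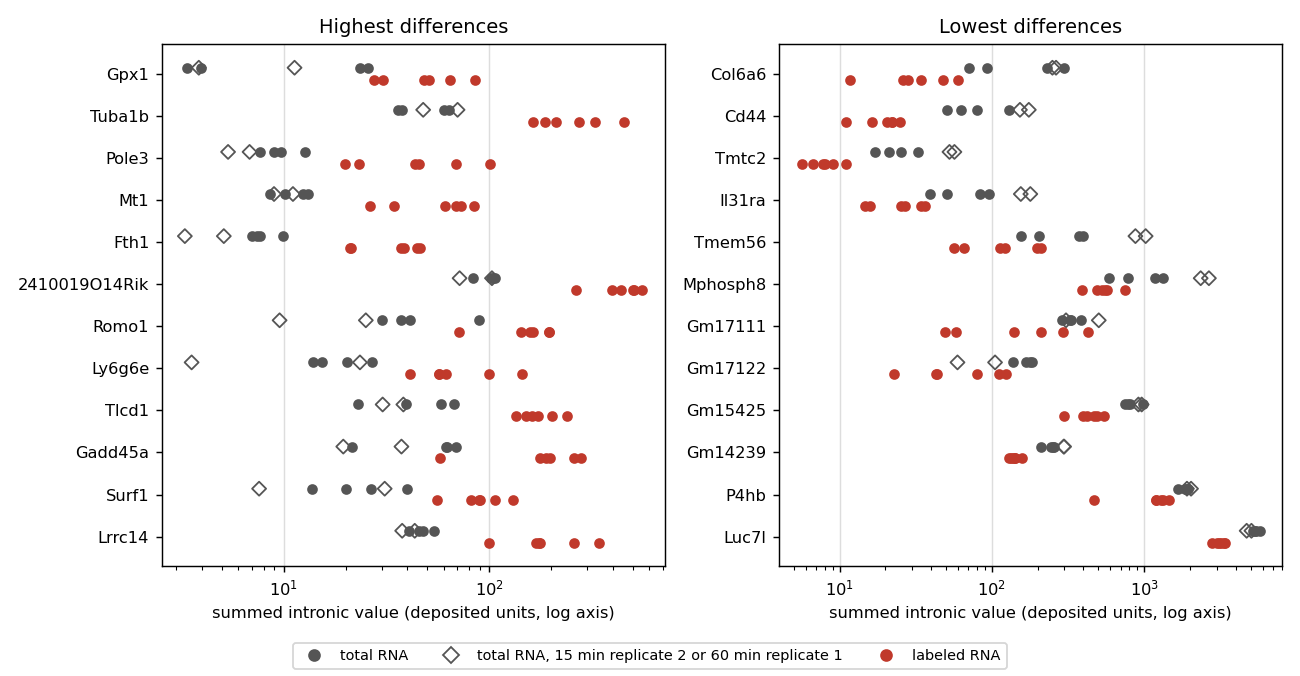
Summed intronic value of each library (deposited units, log axis) for the 12 genes with the highest and the 12 with the lowest differences; grey circles and diamonds are total RNA, red circles labeled RNA, and diamonds mark the total libraries of replicate 2 at 15 min and replicate 1 at 60 min. Labeled libraries of Tuba1b (164 to 450 units) lie above total libraries (35.8 to 70.1 units), whereas for Luc7l all labeled libraries (2809 to 3405 units) lie below all total libraries (4715 to 5733 units).

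Introns lower in labeled than in total RNA were rare. The 29 genes fell into those that shared the order of the libraries and those that did not. In 22 of the 29 (75.9%), the highest values were those of the total libraries of replicate 2 at 15 min and replicate 1 at 60 min, which were the highest pair in 53 of all 15420 genes (0.344%), and in 21 of the 22 the lowest value was that of labeled RNA of replicate 1 at 60 min or replicate 2 at 15 min. This profile was noticed after the values were seen. It is illustrated by Zc3h7a, the most abundant of them, a CCCH zinc finger gene named here after its values were seen. Its introns summed to 26037 and 23469 units in these 2 total libraries, to between 3121 and 12411 units in the other total libraries and to between 1031 and 7144 units in labeled RNA (-1.98 ± 0.53, adjusted p = 0.0126). Exonic values of 2 small noncoding RNAs made by RNA polymerase III, also picked after the values were seen, were highest in the same 2 libraries. A 7SK transcript had 1794 and 1983 units in the 2 total libraries, 61.3 to 349 units in the other total libraries and 10.6 to 539 units in labeled RNA. An RNase MRP transcript had 260 and 243 units, 7.38 to 63.8 units and 2.92 to 44.3 units. The part of such RNAs in the intronic values was not tested. Of the 29 genes 16 were lower without total RNA of replicate 1 at 60 min, 17 without that of replicate 2 at 15 min and 18 without that of replicate 2 at 30 min. Without both total libraries, a choice made after the data were seen, 6 of the 29 genes were called lower, and all 6 were among the 29: Col6a6, Cd44, Tmtc2, Il31ra, Gm15425 and Luc7l.

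Luc7l, a splicing factor that associates with the U1 snRNP, had the most evenly lowered introns. It lies on chromosome 17 from 26252899 to 26285510 (plus strand) and its introns had a lowest, median and highest value of 4715, 5289 and 5733 units in total RNA and of 2809, 3172 and 3405 units in labeled RNA. The difference was -0.73 ± 0.16 (SE, adjusted p = 0.00402), with no overlap of the groups. Its exons did not pass the test (0.10 ± 0.16, adjusted p = 0.712), and the intron-to-exon ratio was lower in labeled RNA (-0.83 ± 0.25, adjusted p = 0.0257). P4hb, which encodes protein disulfide isomerase, had introns of 1676 to 2034 units in total RNA and 468 to 1450 units in labeled RNA (-0.78 ± 0.24, adjusted p = 0.0253). Again the groups did not overlap, and the labeled library of replicate 2 at 60 min was far below the other labeled ones, which lay between 1198 and 1450 units. Exons of P4hb were lower as well (-0.41 ± 0.09, adjusted p = 0.0124).

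Col6a6, a collagen VI chain, and Cd44, the hyaluronan receptor, had the lowest differences. Introns of Col6a6 had a lowest, median and highest value of 71, 240 and 300 units in total RNA and of 11.7, 31.2 and 60.1 units in labeled RNA (-2.48 ± 0.40, adjusted p = 0.00122). Introns of Cd44, on chromosome 2 from 102811141 to 102901669 (minus strand), had 50.5, 105 and 175 units in total RNA and 11, 21.2 and 25.1 units in labeled RNA (-2.31 ± 0.35, adjusted p = 0.000988). No labeled library reached a total one in either gene. Neither gene had exonic values in all 12 libraries, nor did Tmtc2 (-1.85 ± 0.32, adjusted p = 0.00149), Il31ra (-1.81 ± 0.38, adjusted p = 0.00347) or Tmem56 (-1.81 ± 0.45, adjusted p = 0.00843). The intronic values of these genes were therefore not set against exonic values.

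Mphosph8, which encodes a reader of methylated histone H3 in the HUSH silencing complex, ranged from 590 to 2665 units in total RNA and from 393 to 754 units in labeled RNA (-1.25 ± 0.33, adjusted p = 0.0106), so the groups overlapped. Its exons did not pass the test (-0.12 ± 0.12, adjusted p = 0.551). For 3 of the 12 genes the annotated introns lie largely in exons of other genes, 100% of the bases in Gm17111 and Gm17122 and 58% in Gm15425, so intronic and exonic reads cannot be told apart there. The pseudogene Gm14239 had 209 to 298 units in total RNA and 129 to 159 units in labeled RNA (-0.87 ± 0.22, adjusted p = 0.00851). Of all 29 lower genes, 6 held an annotated small RNA within an intron and 23 held none, against 13915 of all 15420 genes that held none.

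The medians of 18 gene groups ranged from 0.19 to 1.46, and 11 of them lay above that of all genes. The lists were written with earlier results of these data known, and their counts are read against 29.4% of all genes higher on the deposited scale and 6.77% higher and 9.11% lower after centring. Introns of cytosolic ribosomal protein genes, whose products form the ribosome, rose most uniformly. Of 83 measured genes 79 (95.2%) were higher and none lower, with a median of 1.46, and after centring 52 (62.7%) were higher and none lower. The median of this group exceeded that of all genes in all 6 pairs, including the labeled libraries of replicate 2 at 15 and 60 min, where it was 1.29 and 0.92 against 0.07 and 0.06. Without both high labeled libraries 79 were higher, without both low ones 82, without the 2 total libraries described above 66 and without 30 min 0.

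Fau, which encodes a protein of the small subunit, had the largest difference of the ribosomal protein genes. Its introns had a lowest, median and highest value of 6.76, 14.4 and 19.1 units in total RNA and of 37.9, 61 and 97.1 units in labeled RNA (2.04 ± 0.32, adjusted p = 0.00118). All labeled libraries were above all total libraries. The 4 ribosomal protein genes that were not called included Rpl18 (0.38 ± 0.19, adjusted p = 0.126) and Rps3 (0.48 ± 0.22, adjusted p = 0.0991), which are named here after their values were seen. Exons of these genes moved far less, with a median of 0.11 over 82 genes, 5 of them higher and 2 lower, against 5.68% and 9.45% of all genes. The intron-to-exon ratio was higher in 67 of 82 (23.5% of all genes) and lower in none, and after centring it was called in 26 (10.3% of all genes).

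Hosts of small nucleolar RNAs, which guide the modification of ribosomal RNA and are cut from introns, followed. Of 37 protein-coding hosts 28 (75.7%) were higher and none lower, with a median of 1.22, and after centring 15 were higher and 2, Prpf39 and Eif3a, lower. Several of these hosts are ribosomal protein genes and stand in both groups. Rpl7a, with 4 annotated small nucleolar RNAs in its introns, had 123 to 348 units in total RNA and 632 to 1373 units in labeled RNA (1.96 ± 0.27, adjusted p = 0.000913). Among 5 noncoding hosts, Snhg12, Gas5 and Snhg3 were higher, whereas after centring none was higher and Meg3 was lower. Gas5 had the most abundant introns of any named gene, with 10349 to 20593 units in total RNA and 17820 to 44444 units in labeled RNA (1.17 ± 0.21, adjusted p = 0.00178), and the 2 groups overlapped through the labeled library of replicate 2 at 60 min. Snhg12 had 403 to 1019 units in total RNA and 1063 to 2481 units in labeled RNA (1.43 ± 0.27, adjusted p = 0.00188). Of the annotated intron bases, 27% in Snhg12, 20% in Gas5 and 17% in Rpl7a lie in exons of other genes. Intronic and exonic reads cannot be told apart in those bases. In contrast to Rpl7a, exons of both noncoding hosts were higher as well, by 0.94 ± 0.13 (adjusted p = 0.00106) in Gas5 and 1.12 ± 0.17 (adjusted p = 0.00161) in Snhg12, and their intron-to-exon ratios did not pass the test.

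Introns of metabolic genes had medians above that of all genes. Among glycolysis enzymes 11 of 16 were higher and none lower (median 0.97), and after centring Tpi1, Gapdh, Eno1 and Ldha were higher and Hk2 was lower. Gapdh had 251 to 349 units in total RNA and 733 to 1475 units in labeled RNA (1.79 ± 0.23, adjusted p = 0.000814), and Tpi1, triosephosphate isomerase, had 3.66 to 5.94 units and 15.7 to 39.5 units (2.12 ± 0.28, adjusted p = 0.000814). Neither gene's groups overlapped, and exons of Gapdh fell by 0.34 ± 0.10 (adjusted p = 0.042). Over this group exons were lower in 7 and higher in none of 16 genes, against 9.45% and 5.68% of all genes. The ratio was higher in 10 (23.5% of all genes) and was called in 9 after centring (10.3%). The intronic count was 7 without total RNA of replicate 1 at 15 or 30 min, total RNA of replicate 2 at 60 min, or labeled RNA of replicate 1 at 60 min or of replicate 2 at 30 min.

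Nuclear-encoded respiratory chain genes were higher in 51 of 80 (63.8%) and lower in none, with a median of 0.94. Cox8a, a cytochrome c oxidase subunit, had 17.4 to 32.3 units in total RNA and 71.3 to 108 units in labeled RNA (1.98 ± 0.25, adjusted p = 0.000814), without overlap. Atp5e, a subunit of ATP synthase, had 8.45 to 42.9 units and 57.9 to 116 units (1.95 ± 0.32, adjusted p = 0.00122), also without overlap. Cholesterol genes were higher in 13 of 18 and lower in none (median 0.91), led by Insig1, the sterol-responsive retention factor of the endoplasmic reticulum (1.53 ± 0.31, adjusted p = 0.00271), and Fdps, farnesyl diphosphate synthase (1.40 ± 0.29, adjusted p = 0.00353). After centring 15 respiratory chain genes were higher and Ndufs1 was lower, and the cholesterol genes Dhcr7, Srebf1 and Insig1 were higher and none lower. The cholesterol count rested on single libraries. It was 5 without labeled RNA of replicate 2 at 30 min, 6 without total RNA of replicate 1 at 30 min or of replicate 2 at 15 min, 7 without total RNA of replicate 1 at 15 min or of replicate 2 at 60 min, and 8 without labeled RNA of replicate 1 at 15 or 60 min. Without replicate 1 it was 3, and that of the respiratory chain 27.

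Cell cycle and replication genes were higher in 21 of 28 (75%) and lower in none, with a median of 0.97. Ccnd1, cyclin D1, ranged from 9.26 to 23.5 units in total RNA and from 14.6 to 82.2 units in labeled RNA (1.65 ± 0.37, adjusted p = 0.00504), and Cdt1, which licenses replication origins, from 19.5 to 38.6 units and from 29.4 to 161 units (1.41 ± 0.36, adjusted p = 0.00962). Both overlapped between the groups. After centring Ccna2, Ccnd1, Ccne1, Mcm2 and Mcm3 were higher and none was lower. On the deposited scale 5 of the 28 were called without replicate 1, 8 without the 2 total libraries described above, 12 without labeled RNA of replicate 2 at 30 min and 0 without 30 min. Among p53 targets 9 of 15 were higher, and among immediate early genes Btg2, Dusp1 and Klf6 of 7, both with none lower (medians 0.95 and 0.93). After centring Btg2, Gadd45a and Dusp1 of these were higher and Mdm4 was lower. Without labeled RNA of replicate 2 at 30 min 4 p53 targets were higher, and without that at 60 min all 7 immediate early genes were. The immediate early genes Btg2 (1.78 ± 0.36, adjusted p = 0.00272), which is also a p53 target, and Dusp1, a MAP kinase phosphatase (1.74 ± 0.40, adjusted p = 0.00506), had exons that were higher too, by 1.11 ± 0.17 and 1.15 ± 0.20.

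Introns of pluripotency transcription factors were higher in 6 of 16 genes and lower in none (median 0.77). They were Mycn, Tbx3, Klf4, Pou5f1, Tcf3 and Nanog. The count was 11 without labeled RNA of replicate 2 at 15 or at 60 min and 3 without replicate 1. Mycn, a MYC family factor on chromosome 12 from 12936093 to 12941836 (minus strand), had 65.6 to 108 units in total RNA and 150 to 651 units in labeled RNA (1.70 ± 0.33, adjusted p = 0.0022), without overlap, and was the 1 gene of the group that was higher after centring. Tbx3 had 21.9 to 60.8 units and 37.2 to 218 units (1.37 ± 0.39, adjusted p = 0.0174). Zinc finger genes named Zfp had a median of 0.68, with 100 of 319 (31.3%) higher and 1 lower, and 22 higher and 15 lower after centring. Leaving out labeled RNA of replicate 2 gave 183 (15 min), 48 (30 min) or 206 (60 min) higher genes, and leaving out any other library than labeled RNA of replicate 1 at 30 min gave between 47 (total RNA of replicate 2 at 15 min) and 59. Their extremes were Zfp579 (2.07 ± 0.38, adjusted p = 0.00176) and Zfp791 (-2.09 ± 0.51, adjusted p = 0.00771), the latter with the library profile of the 22 lower genes.

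**Figure D4:**
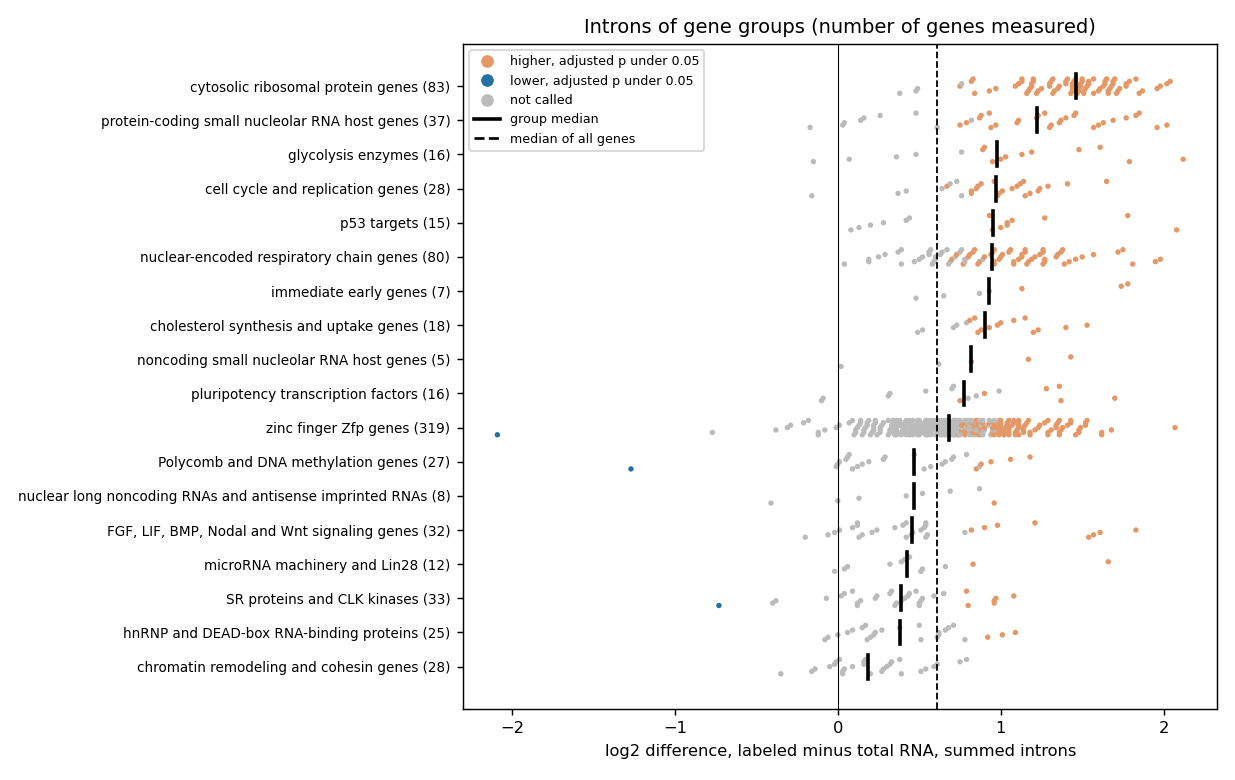
Differences between labeled and total RNA (log2) of the introns of each gene, by gene group with the number of genes measured in parentheses; thick lines are group medians and the dashed line is the median of all genes, 0.61. Cytosolic ribosomal protein genes lie highest with a median of 1.46, and chromatin remodeling and cohesin genes lowest with a median of 0.19.

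At the other end were genes of chromatin and RNA processing. Among 28 chromatin remodeling and cohesin genes none was called on the deposited scale, where 6 were higher without the labeled library of replicate 2 at 15 min and 23 without both low labeled libraries, and 9 were lower without both high ones. Their median of 0.19 was below that of all genes in all 6 pairs, and after centring 11 (39.3%) were lower and none higher. These 11 were Stag2, Nipbl, Pds5a, Arid1b, Arid2, Ep400, Ino80, Wapal, Chd1, Smarca2 and Smarcc1, with centred differences of -1.03 to -0.51. The most abundant introns were those of Smarce1 and Stag1. Smarce1, a BAF complex subunit, had 110 to 167 units in total RNA and 118 to 420 units in labeled RNA (0.79 ± 0.31, adjusted p = 0.0622, or 0.0374 with the replicate as a block). Stag1, a cohesin subunit, had 148 to 256 units and 131 to 488 units (0.27 ± 0.33, adjusted p = 0.508), and its difference was -0.41 after centring. Over this group exons were lower in 14 and higher in 1 of 28 genes, so that the intron-to-exon ratio had a median of 0.63, against 0.65 over all genes.

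Splicing regulators of the SR and CLK families were called in both directions. Of 33 genes 6 were higher and Luc7l was lower, with a median of 0.39. The count of higher genes was 15 without labeled RNA of replicate 2 at 60 min, 2 without total RNA of replicate 2 at 15 min, and 3 without any 1 of the 30 min libraries or total RNA of replicate 2 at 60 min. Pnn (1.08 ± 0.31, adjusted p = 0.0166) and Clk2 (0.97 ± 0.25, adjusted p = 0.0107), a kinase of SR proteins, were the highest, with 184 to 359 units in labeled RNA against 101 to 172 units in total RNA for Clk2. After centring none was higher and 8 were lower, namely Luc7l, Srsf1, Srsf2, Rbm25, Luc7l2, Srek1, Ogt and Nktr. hnRNP and DEAD-box proteins were higher in 3 of 25, Hnrnpl, Ptbp1 and Hnrnph2 (median 0.38), and none was lower. Without labeled RNA of replicate 2 at 15 or 60 min 10 and 11 were higher. After centring none was higher and Syncrip, Sfpq, Hnrnpc and Ddx17 were lower. Hnrnpl had 661 to 786 units in total RNA and 1311 to 1793 units in labeled RNA (1.09 ± 0.19, adjusted p = 0.00153), without overlap. Ptbp1, the polypyrimidine tract-binding protein, had 247 to 432 units and 417 to 1083 units (1.01 ± 0.26, adjusted p = 0.00912), and its exons fell by 0.61 ± 0.15 (adjusted p = 0.015).

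Polycomb and DNA methylation genes were higher in 5 of 27 and lower in 1 (median 0.47). The count of higher genes was 11 and 13 without labeled RNA of replicate 2 at 15 and 60 min, and 3 without any 1 of the other libraries. Phf19, a Polycomb accessory protein, had 10.1 to 13.4 units in total RNA and 15.2 to 42.9 units in labeled RNA (1.18 ± 0.30, adjusted p = 0.00945), and Cbx6 had 48.8 to 69 units and 83 to 223 units (1.06 ± 0.28, adjusted p = 0.0106), both without overlap. Jarid2, a cofactor of PRC2, was the lower gene (-1.27 ± 0.40, adjusted p = 0.025), with 1484 to 6578 units in total RNA and 537 to 2499 units in labeled RNA and the library profile described above, and its call was lost without total RNA of replicate 1 at 60 min or of replicate 2 at 15 or 30 min. After centring Jarid2, Mtf2, Aebp2, Suz12, Dnmt3a and Pcgf5 were lower and Phf19 was higher.

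Signaling genes of the FGF, LIF, BMP, Nodal and Wnt pathways were higher in 8 of 32 (25%) and lower in none (median 0.46, or 0.06 with the level of transcripts without exonic values subtracted). The count was 13 without labeled RNA of replicate 2 at 15 min, 3 without that at 30 min or total RNA of replicate 2 at 60 min, 4 without any 1 of total RNA at 15 or 30 min, and 5 without labeled RNA of replicate 1 at 15 min, while 7 were lower without both high labeled libraries. The 4 highest were Lefty1 (1.83 ± 0.42, adjusted p = 0.00553), a Nodal antagonist, Fgf4 (1.61 ± 0.51, adjusted p = 0.0261), Mapk3 and Lefty2. Introns of Fgf4 ranged from 9.28 to 70 units in total RNA and from 15.3 to 152 units in labeled RNA, so they overlapped widely. After centring 1 gene, Lefty2, was higher, and Smad2 and Bmpr2 were among 3 that were lower. Among 12 genes of the microRNA machinery, Tarbp2, a partner of Dicer (1.66 ± 0.24, adjusted p = 0.000973), and Xpo5, which exports microRNA precursors (0.83 ± 0.29, adjusted p = 0.0405), were higher, with a group median of 0.42 and no call after centring. The count was 5 without labeled RNA of replicate 2 at 60 min and 1 without any 1 of the other libraries except labeled RNA of replicate 2 at 15 min. Of 8 nuclear long noncoding RNAs and antisense imprinted RNAs, Tug1 was higher (0.96 ± 0.33, adjusted p = 0.0377). Its introns had 180 to 352 units in total RNA and 235 to 1090 units in labeled RNA. This call was lost without any 1 of the total libraries or without labeled RNA of replicate 1 at 15 or 60 min or of replicate 2 at 30 min, whereas 4 and 3 were higher without labeled RNA of replicate 2 at 15 and 60 min. The median of these RNAs was 0.47, and after centring none was higher and Xist and Tsix were lower. Whether the calls of Xist and Tsix rest on the same reads was not tested.

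Introns and exons of the same gene were compared in 11905 genes with both. The median difference was 0.62 for introns and -0.04 for exons, and the 2 differences had a Spearman correlation of 0.343 across genes, which share the same libraries. Over all 16726 genes with exonic values, exons were higher in 5.68% and lower in 9.45%. Of the genes with higher introns, 402 had higher exons, 190 had lower exons and 2939 had exons that were not called. The intron-to-exon ratio was called in 2838 genes (23.8%), being higher in labeled RNA in 2800 (23.5%) and lower in 38 (0.319%). After centring it was called in 1232 (10.3%), being higher in 735 (6.17%) and lower in 497 (4.17%).

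The ratio rose most in Fth1 (2.83 ± 0.36, adjusted p = 0.00105), Tuba1b (2.69 ± 0.35, adjusted p = 0.00105), Rnasek (2.65 ± 0.41, adjusted p = 0.00207) and Sepw1 (2.45 ± 0.30, adjusted p = 0.00105), a selenoprotein. In all 4 the introns were higher and the exons lower. Introns of Rnasek ranged from 13.6 to 56 units in total RNA and from 53.7 to 164 units in labeled RNA, and its mean exonic value was 660 units in total and 376 units in labeled RNA. The ratio fell most in Zfp791 (-2.47 ± 0.45, adjusted p = 0.00393), A630052C17Rik (-2.35 ± 0.49, adjusted p = 0.00616), C230081A13Rik (-2.06 ± 0.68, adjusted p = 0.0387) and Gm13059 (-2.03 ± 0.40, adjusted p = 0.00484). For A630052C17Rik, whose intron lies wholly in exons of another gene, and Gm13059 the exons were higher (1.36 ± 0.29 and 1.85 ± 0.27), whereas for Zfp791 and C230081A13Rik the introns were lower. Mean exonic values in total and labeled RNA were low, at 7.44 and 10.2 units in Zfp791 and 13.2 and 35.3 units in A630052C17Rik. Zfp791 and C230081A13Rik both had the library profile of the 22 lower genes.

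The enrichment of introns was smaller in genes with more annotated intron. Genes were grouped into quintiles by annotated intron bases, each base counted once over all introns of a gene's member transcripts. From the lowest quintile, up to 6634 bases, to the highest, from 67124 bases, the median difference was 0.83, 0.74, 0.62, 0.50 and 0.45. With the level of transcripts without exonic values subtracted these medians were 0.73, 0.61, 0.40, 0.17 and 0.00. Values below that level were set to 0 there, and the fifth of genes with the lowest values also had a median of 0.00. In quintiles formed among genes with a mean of at least 20 units, the medians on that scale were 0.99, 0.77, 0.54, 0.25 and 0.05. The part of the values set to 0 in the median of 0.00 was not tested, and that median is not read as absent enrichment. In the quintiles of all genes the share that was higher was 48.9%, 41.4%, 24.2%, 13.7% and 18.6%. After centring 4.54% of the quintile with the fewest intron bases and 17% of that with the most were lower. Exons followed in those genes that had exonic values in all 12 libraries, with medians of 0.19, 0.08, -0.05, -0.17 and -0.23. In the same genes the intron-to-exon ratio varied less, from 0.70 in the quintile with the fewest intron bases to 0.58 in that with the most. Across genes the Spearman correlation of the difference with annotated intron bases was -0.334, and it was -0.437 in 8785 genes with a mean of at least 20 units. With the level of transcripts without exonic values subtracted it was -0.321, and for the ratio it was -0.0868. Intron bases were taken from GENCODE M1 and genes share the 12 libraries, so these values describe the genes and carry no test.

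**Figure D5:**
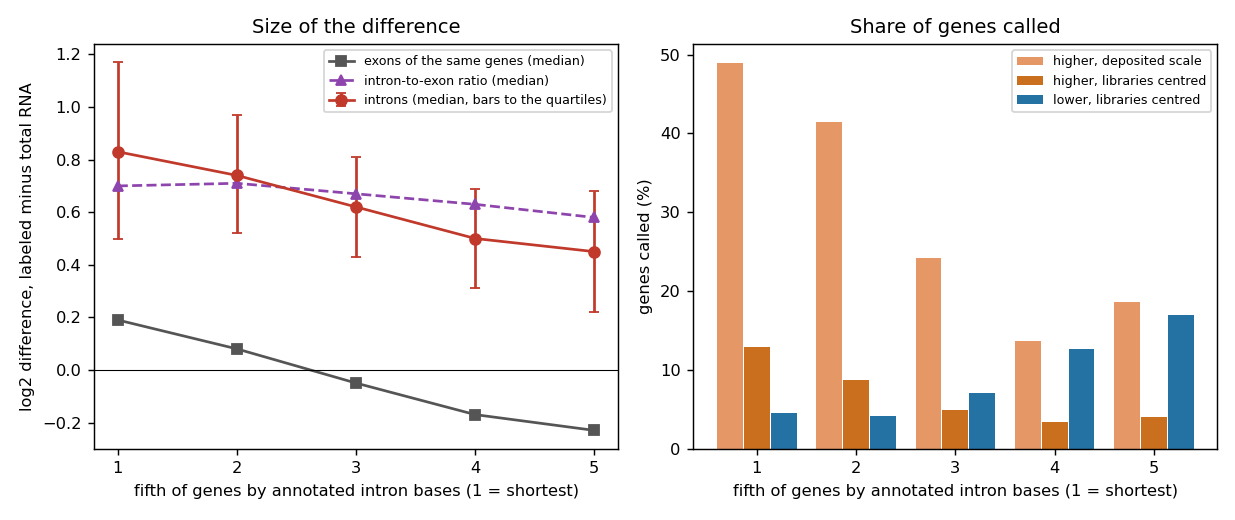
Genes grouped into quintiles by annotated intron bases. Left, median difference between labeled and total RNA (log2) of introns, with bars to the quartiles, of exons and of the intron-to-exon ratio; right, percent of genes called higher on the deposited scale and higher or lower after centring. The intronic median falls from 0.83 to 0.45 while the ratio stays between 0.71 and 0.58.

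Introns of lincRNA genes had a median difference close to that of coding genes, while the medians of their exons lay apart. Over 332 lincRNA genes the median difference of introns was 0.63, against 0.61 over 13621 protein-coding genes. Exonic values in all 12 libraries were present for 203 of these lincRNA genes and 11083 of the coding genes. In these subsets the medians were 0.60 and -0.06 for exons and 0.14 and 0.67 for the ratio. Of the lincRNA genes 115 (34.6%, against 29.4% of all genes) were higher and none lower. After centring 26 (7.83%) were higher and 42 (12.7%) lower, against 6.77% and 9.11% of all genes. Among the introns of transcripts named linc, 34 of 72 were higher and none lower, with a median of 0.83. Among assembled TCONS transcripts 116 of 374 were higher and none lower, with a median of 0.69. Of all transcripts 23.5% were higher. After centring 8 of the linc transcripts were higher and none lower, and 42 of the TCONS transcripts were higher and 12 lower, against 5.82% higher and 7.01% lower of all transcripts.

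The 2 linc transcripts with the largest differences were linc1601 and linc1477. Introns of linc1601 had 9.25, 7.17 and 13.3 units in total RNA of replicate 1 and 5.91, 13.8 and 12.5 units in that of replicate 2 at 15, 30 and 60 min. In labeled RNA they had 42.9, 52.9 and 33.1 units in replicate 1 and 23.4, 56 and 34.6 units in replicate 2 (1.87 ± 0.29, adjusted p = 0.00138), above total RNA throughout. Introns of linc1477 reached 52.7 to 103 units in 5 labeled libraries, but 8.19 units in labeled RNA of replicate 2 at 60 min, within the 6.89 to 23.3 units of total RNA (1.77 ± 0.46, adjusted p = 0.0128). The TCONS transcripts TCONS_00013427 (1.84 ± 0.43, adjusted p = 0.00825) and TCONS_00037235 (1.75 ± 0.28, adjusted p = 0.00158) led theirs, the latter with 1.68 to 4.21 units in total RNA and 6.14 to 14.5 units in labeled RNA.

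Whether the difference between labeled and total introns depends on labeling time was tested as an interaction. With limma none of 15420 genes was called for 60 against 15 min, 30 had an unadjusted p under 0.05, and the joint test over the 3 labeling times gave 0 genes and 18 unadjusted. The median 95% interval of a gene's interaction reached 1.81 to either side on the log2 scale, with 2 replicates a time, and the estimates ranged from -3.23 to 2.48.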

How the data were processed

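RNA was measured in 12 libraries, grouped by the sample labels. Per the study's methods, the authors removed rRNA reads, aligned the rest to exonic and intronic sequences with STAR 2.5.0 and quantified them with RSEM (build mm10 per the labels' processing notes). The deposited signal values are length-normalized abundances that sum to between 19988830 and 19992902 per library. The table holds no value of 1 or less, and 1.01 is its smallest. Depth is unknown from these values, so no counting error is given. Whether counting used strand is not given in the sources used here.

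Transcripts were assigned to genes and gene types with GENCODE M1 (mm9). Intron bases, overlaps with exons of other genes and small RNAs within introns were taken from its mm9 coordinates, a different build from the mm10 of the processing notes. Printed positions are those of RefSeq on GRCm38.p6. Differences were fitted with limma 3.58.1 in R 4.3.3 (mean-variance trend, labeling time as covariate, pseudocount 1, threshold 0.05). Other steps used Python 3.11.15, pandas 2.3.3 and scipy 1.17.1. p-values measure the spread between libraries of cultures divided from 1 source. In simulated data with 15420 genes and 6 against 6 libraries, 64 of 200 genes changed by a log2 value of 1 and 186 of 200 changed by 2 were recovered, with 12 false calls. With 3 against 3 libraries 0 genes of either size were recovered. The simulated noise was independent between genes and lacked the shifts that genes of a real library share. The number of false calls therefore does not carry over to these data.

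Genes were named by rule. From the gene fit these were the 12 highest and 12 lowest called genes with a mean of at least 20 and the same direction in all 6 pairs, and for each list the 2 highest and 2 lowest called members, or the 2 most abundant where none was called. From the ratio fit they were the 4 highest and 4 lowest, and of assembled lincRNAs at most 2 a direction. Some genes that this rule or a count would name are not reported here. The members, lists and tests were chosen with earlier results of these data known. Equal replicate numbers of labeled and total RNA were taken to mark the same culture, which the sample titles do not state. The deviations of labeled and total RNA of equal replicate number had correlations of 0.0679, 0.138 and -0.372 for 15, 30 and 60 min.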

Additional observations from a re-analysis of the deposited data

Results flagged for a closer look

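Among 126 groups of 6 libraries examined for the named genes, 5 held a library whose gap to the nearest other exceeded Dixon's 95% critical value for 6 values. The groups share the same 12 libraries and are not independent, so this count is not set against a rate expected by chance. In 4 of them the outlying library was labeled RNA of replicate 2 at 60 min, low for Romo1 (71.6 units), Gadd45a (57.9 units), P4hb (468 units) and Gas5 (17820 units). The fifth was the total library of replicate 2 at 15 min, which was low for Ly6g6e (3.57 units). That labeled library was also 1 of the 2 with the lowest intronic level.

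Introns of 86 transcripts had a value in all 6 labeled libraries and in no total library, while 0 showed the reverse. They lie outside the comparisons, since they lack values in total RNA. Their median labeled value was 2.15 units and the highest median of a transcript was 6.67 units, close to the limit of 1 unit below which values are missing. Among the highest were transcripts of Hdac5, a histone deacetylase, 1 of which had 3.25 to 8.3 units, and 1 of Notch1, with 1.82 to 10.39 units.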

How the results depend on the processing

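The number of genes called (4558 in all) was within 1.5 times under another pseudocount, missing values as 0, no trend, and the mean or top transcript of a gene. The replicate block raised it to 6280 (19553 transcripts, 4008 ratios), and the crossed pairing at 60 min, chosen after seeing the data, to 5984. The block changed the call of 1 of the 58 named genes, Smarce1. Other settings cost more of these genes their call: 54 without 30 min, 11 without 15 min, 17 after centring and 16 without replicate 1. Without the 2 total libraries described above 16 lost it. Scaling to introns of transcripts without exonic values cost 19 their call, and subtracting the level of those introns cost 13. At a mean of at least 20 the counts were 5072 transcripts and 2851 genes. With equal intronic totals they were 9028 and 2981. Centring gave 7602 transcripts, 2449 genes and 1232 ratios. Without replicate 1 or 2 the counts were 4797 and 21933 transcripts, 1677 and 7785 genes, and 333 and 4860 ratios. Leaving out single libraries gave 6902 to 29356 transcripts, 2565 to 8947 genes and 1103 to 7107 ratios. For genes, the labeled libraries of replicate 2 moved the count most, to 8947 without 15 min, 8220 without 60 min and 2565 without 30 min, and the total libraries of replicate 1 at 15 and 30 min and of replicate 2 at 15 and 60 min lowered it to between 2840 and 3014. Without 15 min 6848 transcripts and 2899 genes were called, without 30 min 4 transcripts, 2 genes and 5 ratios, and without 60 min 7989 transcripts, 2631 genes and 542 ratios. Of the alternatives added after seeing the data, leaving out both low labeled libraries gave 52711 transcripts, 14156 genes and 9405 ratios, leaving out both total libraries that were high in the lower genes gave 3400, 1619 and 628, scaling to introns of transcripts without exonic values gave 6397 transcripts and 1918 genes (827 higher, 1091 lower), and subtracting their level gave 2489 genes. The causes were not tested. The difference of Stag1 reversed to -0.24 with equal intronic totals, -0.41 after centring, -0.1 without replicate 1 (0.64 without replicate 2), -0.27 without both high labeled libraries and -0.52 with scaling to transcripts without exonic values. Of the 58 genes named by rule no other reversed, and of those named for other reasons Rps3 and Rpl18 had differences of -0.19 and -0.30 and Meg3, Eif3a and Prpf39 of -0.66, -0.54 and -0.65 after centring. Between 10 and 12 of the 18 groups had medians above that of all genes, and the interaction called 0 genes under the pseudocounts, the filter, the scalings to intronic totals and medians, no trend, the block and each single library left out. It was not run under the others.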
